A study of Caenorhabditis elegans with 2 samples.

Results

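The significant pooled regions below the IDR list are 1135 of the 22583 regions (5.03%) that were listed in ce11 for the pooled replicates of a COG-1 chromatin immunoprecipitation in Caenorhabditis elegans. IDR, the irreproducible discovery rate, is a procedure that cuts a ranked list by how alike 2 replicates rank its regions. The regions were chosen by 2 values of the deposited lists. Each had a q-value, the caller's false discovery rate, under 0.05, and none was a row of the shorter list that passed the IDR threshold. They are called sub-IDR regions here, the 1841 regions of the thresholded list are called IDR peaks, and the 19607 remaining regions, with q-values of 0.0505 or more, are called other pooled regions. The whole pooled list of 22583 regions, sub-IDR regions included, is labelled peaks and background, so that being listed there does not by itself imply enrichment.

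All material came from 1 group. Hermaphrodite worms of strain OP541 carry the unc-119(tm4063) III mutation and the integrated transgene wgIs541, which gives COG-1 with GFP and FLAG at its C-terminus. Embryos were taken at the mid-embryonic stage, 3 h after synchronization by egg bleaching, and sonicated chromatin of whole organisms was precipitated with an antibody to GFP, although the antibody field of the labels reads cog-1. There were 2 biological replicates. The expression level of the transgene was not given in the sources used here, and the control alignment and any untagged strain were not analysed here, so enrichment over untagged chromatin is not measured by the values below. Because whole embryos were used, binding in fewer cells and weaker binding per cell cannot be told apart.

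COG-1 belongs to the NK6 family of homeodomain transcription factors. It is known in C. elegans for setting the asymmetry of the ASE taste neurons, where it acts with the Groucho-type corepressor UNC-37 and is repressed by the microRNA lsy-6, and for the development of the vulva and uterus. Homeodomain proteins bind short AT-rich sequences, and ChIP-seq regions of many factors also gather at open promoters and at genes read by RNA polymerase III, such as tRNA genes.

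The sequences around 10 summits are shown because they mark the members whose summits lay in the highest-ranked regions of both replicates' own lists, the strongest members inside tRNA genes, and a member that held a pair of searched motifs. Each is 101 bases of ce11 on the plus strand, from 50 bases before to 50 after the summit, 5′ to 3′, with searched motifs in capitals. The first 3 are the sub-IDR regions nearest syd-2 (chrX:10555802-10555902), F54F2.6 (chrIII:8802231-8802331) and C28G1.2 (chrX:8836210-8836310), whose summits lay 199 to 205 bp from the summit of an IDR peak, so that the replicate ranks may be those of the neighbouring peak. The next 4 are those nearest R11G1.2 (chrX:3650503-3650603), W09D6.5 (chrIII:11093556-11093656), ZC21.10 (chrIII:8529114-8529214) and F56H9.2 (chrV:12637443-12637543), which lay apart from any IDR peak. F42F12.t1 (chrX:12348060-12348160) and F18C5.t1 (chrII:6565237-6565337) are tRNA genes that hold a summit. The summit upstream of taf-3 (chrX:16332097-16332197) was chosen after its values were seen.
syd-2: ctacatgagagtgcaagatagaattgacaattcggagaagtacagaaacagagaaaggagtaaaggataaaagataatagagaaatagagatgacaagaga
F54F2.6: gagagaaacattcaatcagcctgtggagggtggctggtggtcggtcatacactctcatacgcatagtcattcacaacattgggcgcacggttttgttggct
C28G1.2: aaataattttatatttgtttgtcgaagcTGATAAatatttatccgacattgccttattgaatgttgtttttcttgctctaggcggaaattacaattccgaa
R11G1.2: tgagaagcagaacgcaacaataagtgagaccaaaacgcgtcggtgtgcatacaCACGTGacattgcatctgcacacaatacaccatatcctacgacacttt
W09D6.5: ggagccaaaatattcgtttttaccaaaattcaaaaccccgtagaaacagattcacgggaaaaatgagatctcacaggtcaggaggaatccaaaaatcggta
ZC21.10: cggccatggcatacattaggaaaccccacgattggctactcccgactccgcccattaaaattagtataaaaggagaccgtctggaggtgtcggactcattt
F56H9.2: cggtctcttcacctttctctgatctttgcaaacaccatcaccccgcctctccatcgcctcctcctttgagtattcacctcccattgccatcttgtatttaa
F42F12.t1: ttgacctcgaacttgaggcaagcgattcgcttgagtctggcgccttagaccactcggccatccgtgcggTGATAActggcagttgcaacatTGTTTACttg
F18C5.t1: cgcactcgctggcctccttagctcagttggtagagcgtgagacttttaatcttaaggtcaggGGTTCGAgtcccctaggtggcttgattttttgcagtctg
taf-3: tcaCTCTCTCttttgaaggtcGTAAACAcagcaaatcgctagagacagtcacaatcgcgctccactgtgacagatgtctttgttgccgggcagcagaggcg
In these 10 windows the capitals mark CACGTG at R11G1.2, TGATAA at C28G1.2, TGATAA and TGTTTAC at F42F12.t1, GGTTCGA at F18C5.t1, and GAGAGAG and TGTTTAC at taf-3, where the letters shown are those of the opposite strand. The other 5 windows held none of the 9 motifs searched.

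The values that chose the sub-IDR regions are a description and were not tested. They held ranks 1842 to 2976 of the pooled list without a gap, directly below the 1841 IDR peaks. The authors' signal, the caller's own measure of region strength with no stated scaling to depth, ran from 59.01 to 77.7 with a median of 66.6. It ran from 77.73 to 769 with a median of 111 for IDR peaks, and from 23.5 to 58.98 for other pooled regions. The q-values ran from 0.00238 to 0.04996 with a median of 0.011, and 1134 of the 1135 regions were 450 bp wide. The boundary values were nearly equal. The last IDR peak, nearest C03B8.3, had a signal of 77.73 and a q-value of 0.002445, and the first sub-IDR region, nearest F42F12.14, had 77.70 and 0.002444. The last sub-IDR region, nearest ZK377.15, had a signal of 59.01 and a q-value of 0.04991, and the first region outside, 287 bp upstream of eif-3.G, had 58.98 and 0.05056.

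Almost every sub-IDR region was listed in each replicate, but few passed the q-value in both. The replicate lists are the source of the pooled values, so these counts describe the choice and were not tested. A region of replicate 1's own list held the summit of 1084 members (95.5%), a region of replicate 2's list held 1127 (99.3%), and 1076 (94.8%) had both. Regions in both lists were held by 99.6% of IDR peaks and 29.9% of other pooled regions. Replicate 2 alone held 51, replicate 1 alone held 8, and 0 lay in neither. A q-value under 0.05 was reached in both replicates by 124 members (10.9%), in replicate 2 only by 701 (61.8%), in replicate 1 only by 175 (15.4%) and in neither by 135 (11.9%). Among IDR peaks 1508 of 1841 (81.9%) reached it in both, and among other pooled regions 94 of 19607 (0.479%). Replicate 2 only passed at 303 IDR peaks (16.5%) and 969 other pooled regions (4.94%). Replicate 1 only passed at 29 (1.575%) and 277 (1.41%), so the lean to replicate 2 was not particular to the members. The first 1841 regions of both replicates' lists held 10 sub-IDR regions (0.881%), against 1219 IDR peaks (66.2%) and 46 other pooled regions (0.235%).

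The signal of the sub-IDR regions ran from 14.3 to 142 in replicate 1, with a median of 29.9, and from 14.9 to 121 in replicate 2, with a median of 37.6. Of the 1076 with both values, 732 (68.03%) were higher in replicate 2 and 344 (32.0%) in replicate 1. Replicate 1 gave a median of 44.5% of the summed signal at members, against 43.2% at IDR peaks and 49.2% at other pooled regions. The upper quartile was 52.6% at members and 48.6% at IDR peaks, so the lean to replicate 2 was not particular to the members. The sum of both replicates' signals divided by the pooled signal had a median of 0.993, so the pooled value was close to a sum. Across the 1076 regions the Spearman correlation between replicates was -0.54, against 0.57 over 1833 IDR peaks and 0.58 over all 8764 pooled regions with values in both lists. These are descriptions over regions of the same 2 libraries, and the members were chosen from a narrow range of what is nearly the sum of the 2 values plotted. Of the members, 18 had summed replicate signals over 1.5 times the pooled signal, and all 18 overlapped an IDR peak. For such members the replicate value may be that of the neighbouring peak, since a replicate's region was assigned by holding the pooled summit.

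**Figure D1:**
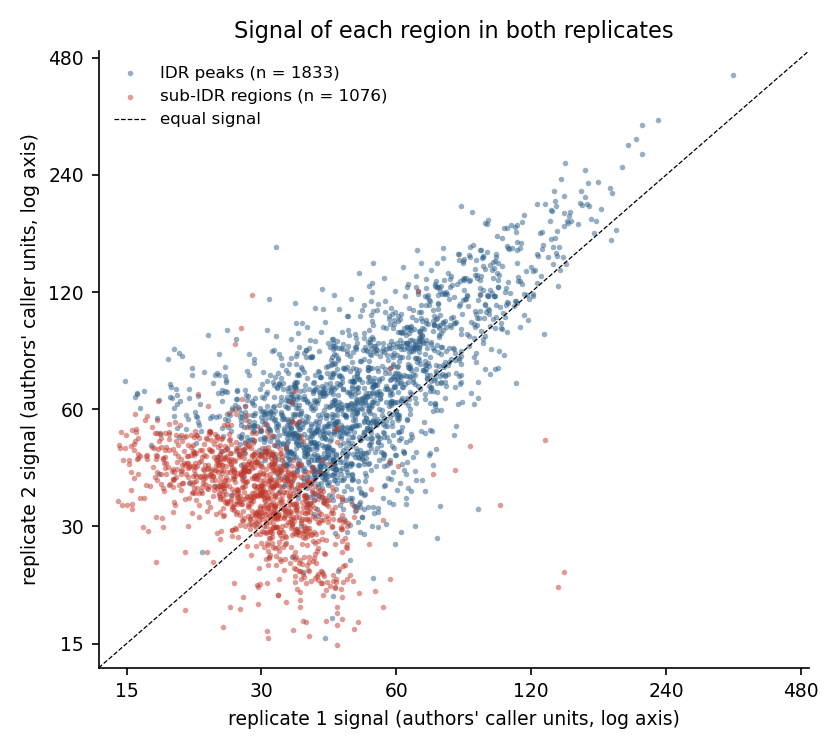
Signal of each region in replicate 1 (horizontal) and replicate 2 (vertical), in the authors' caller units on log axes, for sub-IDR regions and IDR peaks with a region in both replicates. Each point is a region. The 1076 sub-IDR regions lie along a band that falls from upper left to lower right (Spearman correlation -0.54), and the 1833 IDR peaks along a band that rises (Spearman correlation 0.57).

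Among the 10 members of highest pooled signal, the replicates often differed in which was higher. The region 519 bp upstream of F42F12.14 (X, 12347885 to 12348334, rank 1842) had a signal of 35.1 in replicate 1 and 40.8 in replicate 2. The region in an intron of Y67D8A.2 (IV, 3233451 to 3233900), 326 bp from the microRNA gene mir-58a, had 43.25 and 36.98. The region 806 bp upstream of fbxb-58, an F-box gene, had 36.4 and 43.2, and lay 201 bp from an IDR summit. At these 3 regions the replicates were close. At the next 2 replicate 2 was the higher by more. The region in an intron of the SET-domain gene set-18 (I, 10592885 to 10593334), 27 bp from the tRNA gene T22A3.t1, had 21.5 and 46.2. The region 195 bp upstream of C39F7.5 and 589 bp upstream of rab-1 (V, 1264353 to 1264802) had 25.09 and 55.01. The gene rab-1 encodes a GTPase of transport from the endoplasmic reticulum to the Golgi. The region in a non-coding exon inside dim-1, a gene needed for the structure of body wall muscle (X, 8052996 to 8053445), had 44.56 and 35.97. The other 4 lay 82 bp upstream of enu-3.1 and 206 bp upstream of smrd-1, 2536 bp upstream of ttyh-1, 57 bp upstream of Y75B8A.18 in a window shared with the geminin gene gmn-1, and 109 bp downstream of the start of mpz-3, which encodes a protein with several PDZ domains. Their signals ran from 33.9 to 41.4 in replicate 1 and from 34.5 to 44.4 in replicate 2.

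The 10 members whose worse rank over the replicates' lists was best form 2 kinds. At 6 of them the summit lay 199 to 219 bp from an IDR summit. The clearest was the region 613 bp upstream of syd-2, which encodes liprin-alpha, an organiser of presynaptic sites (X, 10555627 to 10556076). The replicate regions holding its summit had signals of 67.2 in replicate 1 (rank 441) and 121 in replicate 2 (rank 182), but the member had 63.6 in the pooled list (rank 2613). Each replicate's own value was above the pooled value of the member, and the IDR summit lay 205 bp away. Others of this kind were nearest F54F2.6 in an intron of zfp-1, C28G1.2 with sec-15, an exocyst gene, swah-1, and Y52B11A.11 in an intron of the cadherin gene hmr-1.

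The other 4 lay 25903 to 44582 bp from any IDR summit. The region 61 bp upstream of R11G1.2 and 403 bp upstream of sax-1, a gene for an NDR-type kinase of neurite growth (X, 3650328 to 3650777, rank 1969), had a signal of 44.2 in replicate 1 and 49.4 in replicate 2. The region in an intron of hmt-1, an ABC transporter gene of heavy metal tolerance (III, 11093381 to 11093830), had 37.2 and 49.8. The region 908 bp upstream of ZC21.10 had 36.7 and 51.3, and the region 170 bp upstream of F56H9.2 (V, 12637268 to 12637717) had 36.4 and 56.0. All 4 were higher in replicate 2 and had q-values under 0.05 in both lists, from 0.005577 to 0.03186 in replicate 1. Continuing this order among members that overlap no IDR peak, which was decided after values were seen, gave mog-3, ttyh-1, psf-1, a subunit gene of the GINS replication complex, nck-1, C33A12.4 and taf-3, which encodes a TFIID subunit. At taf-3 the signals were 35.2 and 42.9.

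Summits of sub-IDR regions were concentrated at starts of protein-coding genes, less than IDR peaks and more than other pooled regions. The gene-start window ran from 1000 bp upstream to 500 bp downstream of an annotated start. It held 568 members (50.04%, exact 95% interval 47.09 to 52.99), 56.3% of IDR peaks and 29.7% of other pooled regions. The odds ratio was 0.78 against IDR peaks (interval 0.669 to 0.905, two-sided Fisher's exact test, adjusted p = 0.001648) and 2.37 against other pooled regions (interval 2.1 to 2.68, adjusted p = 3.599e-43). Regions are not replicates of the condition, so these p-values concern counting of regions in the 2 pooled libraries, not variation between cultures.

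Coding exons outside the windows held 9 sub-IDR regions (0.793%), 4 IDR peaks (0.217%) and 6.41% of other pooled regions. The odds ratio against other pooled regions was 0.117 (interval 0.0531 to 0.223, Fisher's exact test, adjusted p = 1.952e-20), and against IDR peaks it was 3.67 with a wide interval of 1.02 to 16.3 (adjusted p = 0.0402). The 9 lay in nrfl-1, C09B9.1, tbc-12, rhgf-3, T05G5.1, C18H7.1, smut-1, bca-2 and dos-3, and tRNA genes lay 39 to 165 bp from the summits in tbc-12, C09B9.1 and C18H7.1. The call against IDR peaks was lost in the regions of the same ranks of replicate 2's own list, that is without replicate 1 (1.63, adjusted exact p = 0.4394). In a single replicate's list, here and below, its first 1841 regions stood for the IDR peaks. The call was also lost with a window of 500 bp upstream and 250 bp downstream (2.93, adjusted exact p = 0.05407). The 9 genes are named because there were so few. The strongest, in nrfl-1 (IV, 9121301 to 9121750), had a signal of 45.04 in replicate 1 and 29.97 in replicate 2, and the second, in C09B9.1, had 31.6 and 29.2.

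Introns of protein-coding genes held 215 sub-IDR regions (18.9%), against 15.2% of IDR peaks (odds ratio 1.31, interval 1.07 to 1.6, adjusted exact p = 0.01039) and 30.5% of other pooled regions (0.531, interval 0.454 to 0.619, adjusted p = 1.15e-17). Intergenic sequence held 268 (23.6%), against 18.1% of IDR peaks (1.4, interval 1.16 to 1.68, adjusted exact p = 0.001471) and 27.2% of other pooled regions (0.828, interval 0.717 to 0.955, adjusted p = 0.01115). Other exons, untranslated or non-coding, held 75 (6.61%), against 10.3% of IDR peaks (0.618, interval 0.462 to 0.822, adjusted exact p = 0.001648) and 6.17% of other pooled regions (1.08, interval 0.834 to 1.37, adjusted p = 0.527). Thus the members stood between the other classes for gene starts, coding exons, introns and intergenic sequence. With only the 493 members at q under 0.01, none of the 5 comparisons with IDR peaks passed (adjusted p from 0.2807 to 0.3274). Against only the 1135 regions ranked next below, coding exons gave an odds ratio of 0.424 (adjusted exact p = 0.05178) and intergenic sequence 0.808 (adjusted p = 0.0508), while gene starts still gave 1.7 (adjusted p = 3.025e-09). Against the IDR peaks below their median rank, introns gave 1.08 (adjusted exact p = 0.5295) and other exons 0.834 (adjusted exact p = 0.378), and without replicate 2 intergenic sequence gave 1.02 against other pooled regions (adjusted exact p = 0.7547).

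**Figure D2:**
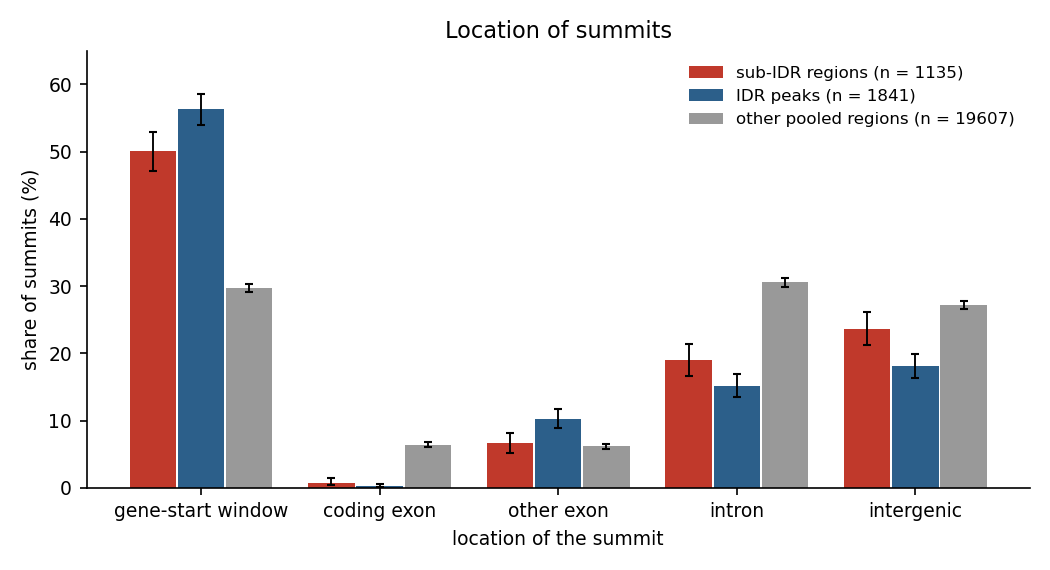
Share of summits (%) in each location for sub-IDR regions, IDR peaks and other pooled regions, with exact 95% binomial intervals as error bars. At gene starts the sub-IDR regions, 50.04%, lie between 56.3% and 29.7%.

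The gene-start share changed little with rank within the list, and the larger step lay at its lower end. Split by rank into 3 groups, the gene-start share was 53.2% at ranks 1842 to 2219, 47.2% at ranks 2220 to 2598 and 49.7% at ranks 2599 to 2976. It was 57.3% in the last 241 IDR peaks and 37.2% in the 1024 regions at ranks 2977 to 4000. The exact intervals of the last member group, 44.6 to 54.9, and of ranks 2977 to 4000, 34.2 to 40.2, did not overlap. Coding exons held 1.06% of the last member group and 1.86% of ranks 2977 to 4000, with overlapping intervals. The share near a tRNA gene was 7.14%, 5.01% and 2.91% in the 3 member groups and 2.54% at ranks 2977 to 4000. The exact intervals of the 3 member groups, 4.76 to 10.2, 3.045 to 7.72 and 1.46 to 5.15, overlapped, and no difference between them was tested. The X chromosome held 17.2%, 23.8% and 15.6% of the 3 groups.

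**Figure D3:**
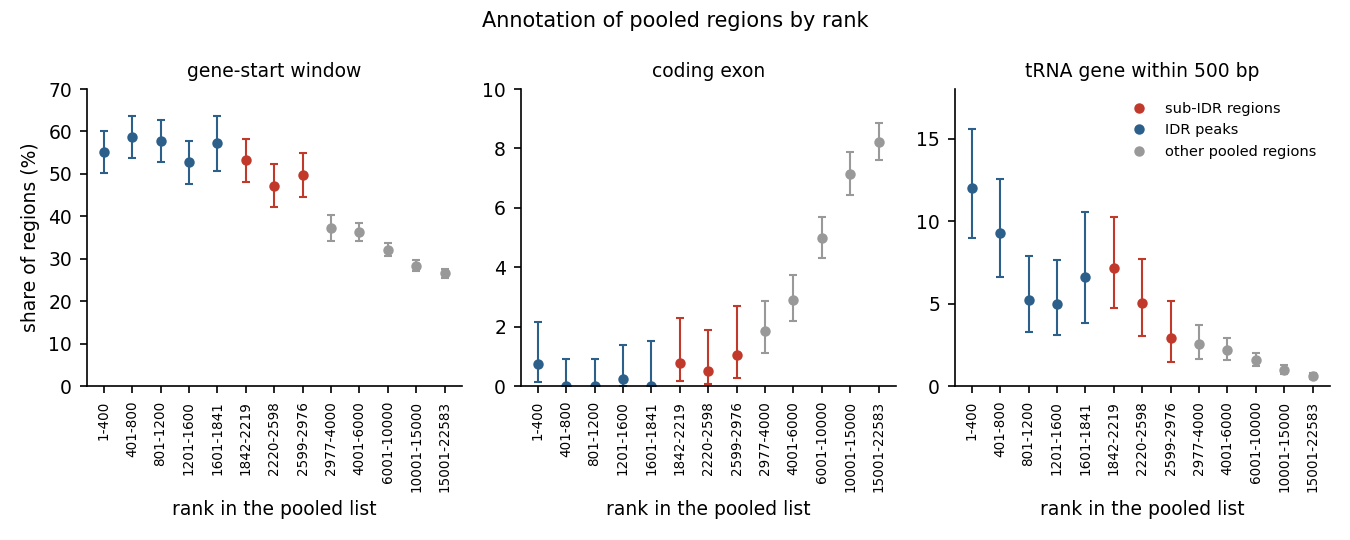
Share of pooled regions (%) in a gene-start window, in a coding exon and within 500 bp of a tRNA gene, by rank in the pooled list, with exact 95% intervals. Each point is a group of regions of adjoining rank. The sub-IDR regions, from 47.2% to 53.2% at gene starts, lie near the IDR peaks and above ranks 2977 to 4000 at 37.2%.

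The median distance from a sub-IDR summit to the nearest protein-coding gene start was 806 bp, against 592 bp for IDR peaks and 1650 bp for other pooled regions. There were 749 members upstream of that start (66.0%), against 72.2% and 49.6%. The 250 bp just upstream held 270 members (23.8%), 27.3% of IDR peaks and 7.92% of other pooled regions. Within 200 bp of a start on either side lay 293 members (25.8%), against 24.7% of IDR peaks and 10.3% of other pooled regions. So close to a start the members were not below the IDR peaks, and this was not tested. Over 5000 bp away lay 116 members (10.2%), against 8.64% and 15.6%. Of the 568 members in a gene-start window, 170 (29.9%) lay in windows of genes on both strands, against 32.5% of IDR peaks (odds ratio 0.886, interval 0.705 to 1.11, Fisher's exact p = 0.2868).

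**Figure D4:**
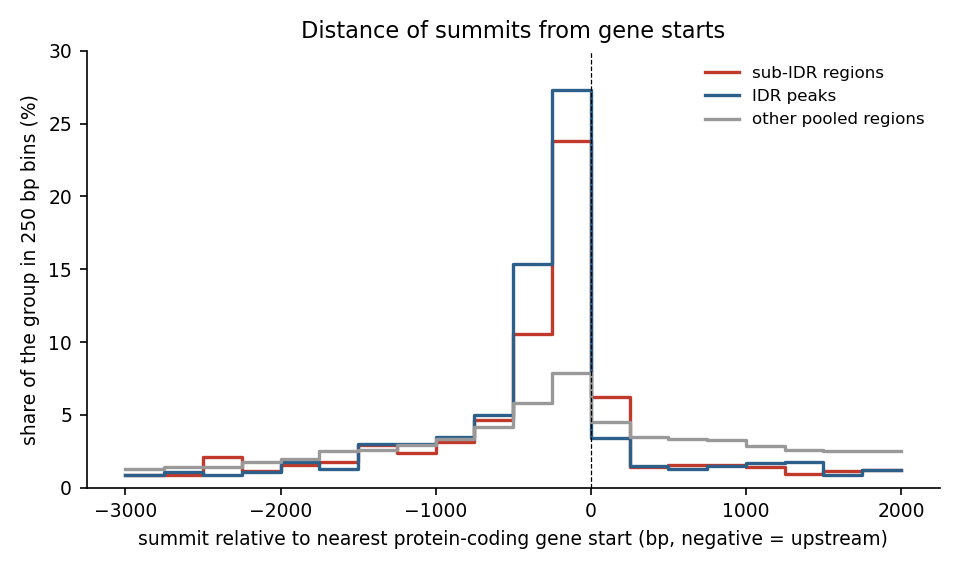
Share of each group (%) in 250 bp bins of distance from the nearest protein-coding gene start, with negative distances upstream. The tallest bin of all 3 lines is the 250 bp upstream, with 23.8% of sub-IDR regions, 27.3% of IDR peaks and 7.92% of other pooled regions.

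The sub-IDR regions were spread over all 6 chromosomes, from 157 on V to 214 on X, or 7.5 per Mb on V, 9.49 on IV, 12.1 on X, 12.8 on II and 13.9 on both I and III. The X chromosome held 18.9%, against 23.2% of IDR peaks (odds ratio 0.77, interval 0.637 to 0.928, Fisher's exact test, adjusted p = 0.0307) and 20.4% of other pooled regions (0.908, interval 0.776 to 1.06, adjusted p = 0.2246). The call against IDR peaks on X was lost under several settings. The odds ratio was 0.832 (adjusted exact p = 0.419) without regions near tRNA genes, 0.859 (adjusted p = 0.691) against the IDR peaks below their median rank, and 0.877 in the regions of the same ranks of either replicate's own list (adjusted p from 0.2397 to 0.9182). It was 0.73 both with members at q under 0.01 (adjusted exact p = 0.08702) and without regions that overlap an IDR peak (adjusted exact p = 0.006877). Against other pooled regions, chromosome II held more members (17.3% against 14.1%, odds ratio 1.28, adjusted exact p = 0.01021) and V fewer (13.8% against 17.5%, 0.757, adjusted p = 0.008453). Gene-start windows held 42.5% of the 214 members on X and 51.8% of the 921 on autosomes. The share on X was also the lower for IDR peaks (49.2% against 58.4%) and for other pooled regions (24.1% against 31.1%).

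Genes of tRNAs, read by RNA polymerase III from promoters inside the gene, lay within 500 bp of 57 sub-IDR summits (5.02%), against 7.71% of IDR peaks and 1.17% of other pooled regions. The odds ratio was 0.633 against IDR peaks (interval 0.452 to 0.875, Fisher's exact test, adjusted p = 0.008132) and 4.47 against other pooled regions (interval 3.26 to 6.05, adjusted p = 4.43e-17). Against only the 1135 regions ranked next below it was 1.88 (adjusted exact p = 0.02504). Against the IDR peaks below their median rank it was 0.921 (adjusted exact p = 0.6907), and with members at q under 0.01 it was 0.914 (adjusted p = 0.9362). The 57 regions lay near 65 of the 612 tRNA genes of the annotation (10.6%), and 25 summits lay inside a tRNA gene. IDR peaks lay near 156 of the 612 (25.5%), with 79 summits inside a tRNA gene. On X lay 21 of the 57 regions and 27 of the 65 genes. Of the regions near a tRNA gene, X held 74 of 142 IDR peaks and 103 of 229 other pooled regions. The part on X was thus smallest for the members, and this was not tested. The tRNA genes near members covered 18 products, with 7 of 34 genes for Thr (20.6%) and 7 of 41 for Glu (17.1%). Asn and Met had 4 of 20 each (20.0%). Arg with 5 of 44 (11.4%) and Lys with 5 of 46 (10.9%) were near the 10.6% of all tRNA genes. Trp had 1 of 12 (8.33%) and Pro 1 of 42 (2.38%).

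The strongest members inside tRNA genes are those whose sequences are shown above. The tRNA-Leu gene F42F12.t1 (X, 12348007 to 12348126) held the summit of rank 1842, with replicate signals of 35.1 and 40.8. The tRNA-Lys gene F18C5.t1 (II, 6565248 to 6565320), within 500 bp of the start of mpz-3, held the summit of rank 1851, with 41.4 and 34.5. The tRNA-Ile gene Y119D3B.t1 inside pes-4 followed with 44.8 and 31.2, and the tRNA-Arg gene F09B9.t1 with 32.1 and 48.4. Neither replicate was the higher in all 4.

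Genes of snoRNAs, guides of RNA modification, lay near 12 sub-IDR regions (1.06%), against 4.4% of IDR peaks (odds ratio 0.232, interval 0.115 to 0.431, Fisher's exact test, adjusted p = 3.669e-07) and 0.653% of other pooled regions (1.63, adjusted p = 0.1306). Of RNA classes compared, this was the one with the lowest odds ratio against IDR peaks. Genes of snRNAs lay near 8 members (0.705%), against 0.76% of IDR peaks (adjusted exact p = 1.0) and 0.194% of other pooled regions (3.65, interval 1.47 to 7.98, adjusted p = 0.00639). They included sls-2.2 and sls-2.3, genes of the SL2 spliced leader, which share the member of rank 2359 at a pooled signal of 67.5. The replicate regions that hold this summit had signals of 138 and 20.96, and as the member overlaps an IDR peak, these may be values of the neighbouring peak. MicroRNA genes lay near 10 members (0.881%), against 0.978% of IDR peaks (adjusted exact p = 1.0) and 0.474% of other pooled regions (1.86, adjusted p = 0.1018). Among them were mir-2, mir-42 with mir-43, mir-57, mir-79, and mir-124, which lay 208 bp from a summit in an intron of trpa-1 with signals of 29.1 and 32.1.

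Sub-IDR regions lay beside IDR peaks more often than other pooled regions did. An IDR summit lay within 1000 bp of 104 (9.16%) against 842 of 19607 (4.29%). By Fisher's exact test the odds ratio was 2.25 (interval 1.8 to 2.79, p = 7.595e-12). Of the members, 77 (6.78%) overlapped an IDR peak, with summits 199 to 276 bp apart and a median of 202 bp. Without regions that overlap an IDR peak the odds ratio was 1.5 (exact p = 0.05308), and against the 1135 regions ranked next below it was 1.03 (p = 0.8836). The median distance to an IDR summit was 14205 bp for sub-IDR regions and 18140 bp for other pooled regions, so most members stood far from any IDR peak.

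Base composition at the sub-IDR summits lay between the other classes. The median GC content of the 101 bases was 44.6%, against 47.5% for IDR peaks and 34.7% for other pooled regions, while 400 bp to the side it was 34.7%, 34.7% and 33.7%. Soft-masked sequence, which marks repeats in the reference, held 230 summits (20.3%), against 14.99% of IDR peaks (odds ratio 1.44, interval 1.18 to 1.76, Fisher's exact p = 0.0002412) and 38.5% of other pooled regions (0.406, interval 0.349 to 0.472, p = 1.171e-37).

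Of 9 motifs searched on both strands within 50 bp of the summit, the GA repeat GAGAGAG was the most frequent at sub-IDR regions. It lay at 120 (10.6%), against 1.5% of the windows 400 bp to the side, 12.9% of IDR peaks (odds ratio 0.796, interval 0.625 to 1.01, Fisher's exact test, adjusted p = 0.08368) and 2.93% of other pooled regions (3.92, interval 3.16 to 4.83, adjusted p = 7.928e-29). It lay at 4.13% of all pooled regions. With 100 bp to either side of the summit, the odds ratio against IDR peaks was 0.745 (adjusted exact p = 0.00316). The forkhead sequence TGTTTAC lay at 36 members (3.17%), against 0.881% at the side, 1.74% of IDR peaks (1.85, interval 1.11 to 3.1, adjusted exact p = 0.02579) and 1.46% of other pooled regions (2.21, interval 1.51 to 3.14, adjusted p = 0.0003397), and at 1.57% of all. With 100 bp to either side the value against IDR peaks was 1.46 and no longer passed (adjusted exact p = 0.05265). The E2F sequence TTCCCGC lay at 30 (2.64%), against 2.55% of IDR peaks (adjusted exact p = 0.9056) and 1.39% of other pooled regions (1.93, adjusted p = 0.004928), and at 1.54% of all.

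The homeodomain core was about as frequent at sub-IDR summits as 400 bp away. This sequence, TAATTA, lay at 54 sub-IDR regions (4.76%), against 4.85% of windows at the side, 2.66% of IDR peaks (odds ratio 1.83, interval 1.21 to 2.77, adjusted exact p = 0.007266) and 6.78% of other pooled regions (0.687, interval 0.509 to 0.908, adjusted p = 0.01259). It lay at 6.35% of all pooled regions. The NK6-type TTAATTG, which can overlap TAATTA by the letters TTA, lay at 36 (3.17%), against 2.55% at the side, 1.36% of IDR peaks (2.38, interval 1.38 to 4.16, adjusted exact p = 0.003583) and 3.61% of other pooled regions (0.874, interval 0.604 to 1.23, adjusted p = 0.5409), and at 3.41% of all. The NK2-type CAAGTG lay at 78 (6.87%), against 3.35% at the side, 8.53% of IDR peaks (0.792, adjusted exact p = 0.1387) and 4.35% of other pooled regions (1.62, interval 1.26 to 2.07, adjusted p = 0.000571), and at 4.81% of all.

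The GATA sequence TGATAA lay at 53 members (4.67%), below the 9.07% at the side, against 2.55% of IDR peaks (1.87, adjusted exact p = 0.00517) and 8.59% of other pooled regions (0.521, adjusted p = 7.497e-06), and at 7.9% of all. With 100 bp to either side the value against IDR peaks was 1.28 and no longer passed (adjusted exact p = 0.09852). GGTTCGA, the start of the tRNA B box, lay at 18 (1.59%), against 4.07% of IDR peaks (0.38, interval 0.212 to 0.645, adjusted exact p = 0.0005454) and 0.969% of other pooled regions (1.65, adjusted p = 0.08738), and at 1.25% of all. With 100 bp to either side the value against other pooled regions was 2.07 and passed (adjusted exact p = 0.0002507). The E-box CACGTG lay at 24 (2.11%), against 2.72% of IDR peaks (adjusted exact p = 0.4008) and 1.79% of other pooled regions (adjusted p = 0.474), and at 1.88% of all. The GC content of the windows, given above, moves with these shares, and its part in them was not tested.

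Most gene starts with a sub-IDR region held no IDR peak, as did most gene starts of all. Of 19973 protein-coding genes, 752 held a member in the window (3.77% of all genes), and 1362 held an IDR peak (6.82% of all genes). An IDR peak was also present at 40 of the 752, and 712 had a member only, so that 2074 genes held either. The 40 of 752 is near the 6.82% of all genes with an IDR peak, and the overlap was not tested. A single window held 389 of the 568 members, and 179 lay in more than 1, so that a member between neighbouring genes counts for each.

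Genes of protein synthesis, folding and breakdown held members more often than 3.77%. Of 81 cytosolic ribosomal protein genes, 13 held a member (16.0%) and 52 an IDR peak, and no gene held both, so that 65 (80.2%) held either. The strongest members were 158 bp upstream of rpl-25.2, with replicate signals of 23.8 and 50.1, 411 bp upstream of rpl-2, with 16.5 and 56.4, and 183 bp upstream of rpl-18, with 24.69 and 44.96. All 3 were higher in replicate 2, at over 1.5 times replicate 1. Other members of the list went the other way, with 41.75 and 20.6 at rpl-10 and 40.94 and 22.9 at rpl-21. Of 65 genes of translation factors and tRNA synthetases, 10 held a member (15.4%) and 14 an IDR peak. The strongest lay near rars-1 and fars-1, which encode the arginyl and a phenylalanyl tRNA synthetase, and eif-6, at signals of 29.1 and 52.2, 45.7 and 30.7, and 29.6 and 43.2. The rars-1 and fars-1 members lay 985 and 925 bp upstream of these genes, in windows shared with rpb-8 and rbm-5. The eif-6 member is also that of the proteasome gene pbs-2.

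Of 33 proteasome genes, 6 held a member (18.2%) and 7 an IDR peak, led by pbs-2, rpn-11 and pbs-1. At rpn-11 the signals were 39.6 and 31.5. Of 57 chaperone genes, 7 held a member (12.3%) and 19 an IDR peak, led by cct-2, a subunit gene of the CCT chaperonin, with 20.1 and 50.8, dnj-7 and dnj-24. The heat shock genes hsp-16.2 and hsp-16.41 shared 1 member. Of 70 mitochondrial ribosomal protein genes, 7 held a member (10.0%), led by mrpl-17 (33.1 and 41.8), mrps-16 and mrps-18A. Of 33 splicing genes, 5 did (15.2%), led by prp-21 (23.6 and 51.8), prp-9 and prp-31. Of 35 respiratory chain genes, 5 did (14.3%), led by cox-14, isp-1, the Rieske protein gene of complex III, and nuo-1, a complex I gene whose member is shared with rpl-36.A. Of 29 cell cycle genes, 4 did (13.8%): efl-1, an E2F-type gene, mcm-4 of the replicative helicase, cdk-1 and cyb-1. At efl-1 and cdk-1 replicate 1 had no region, and replicate 2 had 63.5 and 46.7. An IDR peak was held by 14 mitochondrial ribosomal protein genes (20.0%), 13 splicing (39.4%), 11 respiratory chain (31.4%) and 5 cell cycle genes (17.2%). Each was above the member share of its list. These shares describe genes listed with earlier results known, and were not tested.

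Histone genes were near the share of all genes for members, 2 of 59 (3.39%, his-24 and hil-2), although 17 (28.8%) held an IDR peak. Vesicle traffic genes held 6 of 112 (5.36%), led by rab-1, vps-22 and vps-45. The large gene families were below 3.77%, with 1 of 1299 chemoreceptor genes (0.077%, srh-171), 1 of 237 C-type lectin genes (0.422%, clec-87), 1 of 140 neuropeptide genes (0.714%, nlp-4), 4 of 315 F-box genes (1.27%), 3 of 156 collagen genes (1.92%) and 6 of 269 nuclear hormone receptor genes (2.23%).

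**Figure D5:**
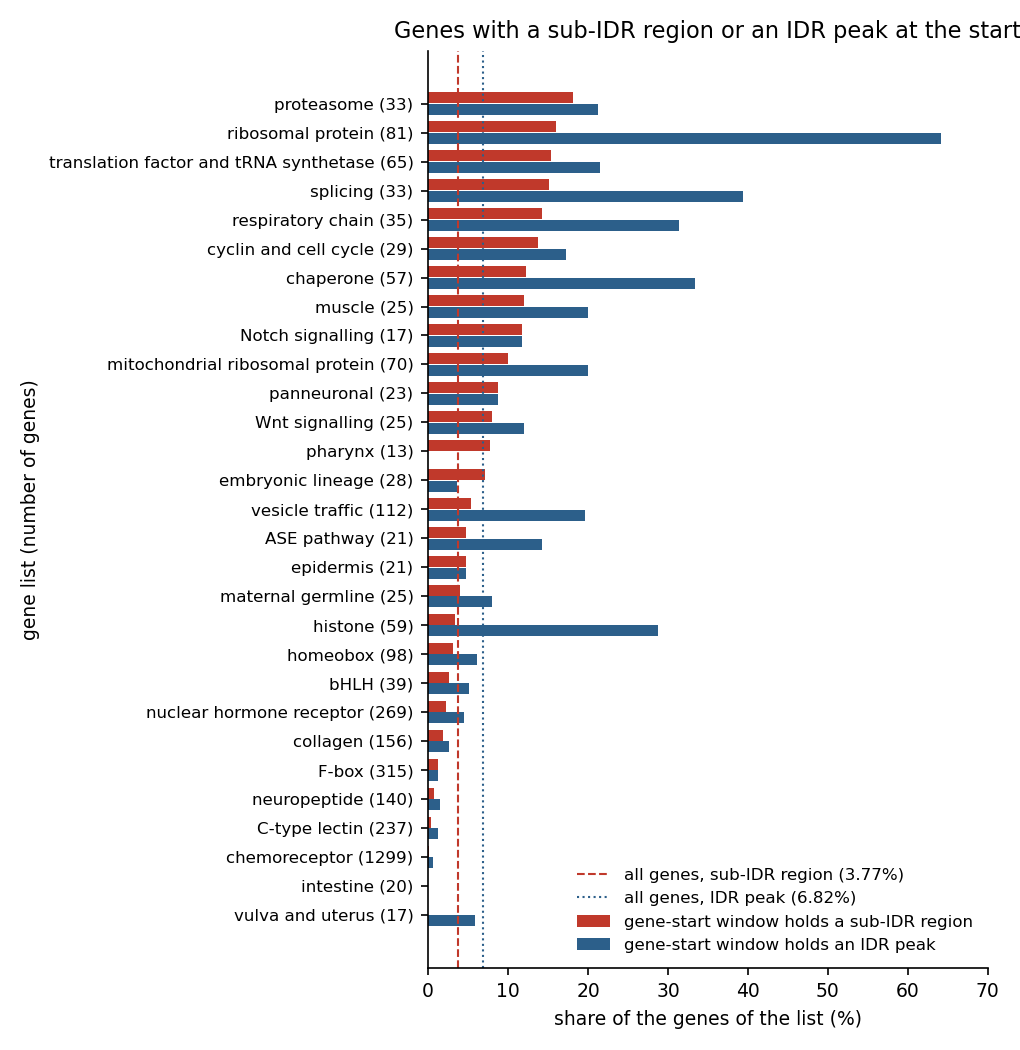
Share (%) of the genes of each list whose gene-start window holds a sub-IDR region or an IDR peak, with dashed and dotted lines at the shares of all protein-coding genes, 3.77% and 6.82%. Proteasome genes (18.2%) and ribosomal protein genes (16.0%) top the sub-IDR shares, and chemoreceptor genes (0.077%) lie near 0.

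Homeobox genes held members at a share near the 3.77% of all genes. Of 98 homeobox genes, 3 did (3.06%): ceh-74, with no region in replicate 1 and a signal of 49.7 in replicate 2, ceh-13, the labial-type Hox gene, 633 bp upstream of the start with 37.8 and 28.4, and ceh-20, the Pbx-type Hox cofactor, with 33.4 and 36.2. Among these ceh-20 also held an IDR peak. Of 28 genes of embryonic lineages, 2 did (7.14%): hlh-1, the MyoD-type gene of body wall muscle, at 129 bp upstream with 40.1 and 22.6, and nhr-25, at 414 bp upstream with 26.9 and 35.9. The hlh-1 gene was the only 1 of 39 bHLH genes with a member. Of 25 muscle genes, 3 did (12.0%): pat-4, the integrin-linked kinase gene, with 45.2 and 29.5, pat-10, a troponin C gene, with 32.95 and 38.1, and unc-60, a cofilin gene, with 24.5 and 50.6.

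Of 23 panneuronal genes, syd-2 and snb-1, the synaptobrevin gene, held a member (8.7%). Of 25 Wnt genes, dsh-2 and mig-1 did, a Dishevelled and a Frizzled gene (8.0%), and of 17 Notch genes pen-2 and sup-17, subunit and protease genes of receptor cleavage (11.8%). Members were also present at peb-1 of 13 pharynx genes, sqt-3 of 21 epidermal genes and car-1 of 25 maternal germline genes. With lists of 13 to 28 genes, a single gene moves the share by several percent.

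None of the 20 intestinal and 17 vulval and uterine genes held a member, and of 21 genes of the ASE pathway 1 did, lsy-2, a zinc finger gene needed for lsy-6, with 14.9 and 47.7. At the 3.77% of all genes, lists of this size would hold a member at fewer than 1 gene each, so these counts are near that share. The genes tied to COG-1 by earlier work were followed singly. None of cog-1, the other ASE genes lsy-6, che-1, die-1, fozi-1 and lim-6, the corepressor gene unc-37, the vulval gene egl-17 and the strain's marker gene unc-119 held a sub-IDR region in its window. The nearest member to cog-1 lay 1384 bp downstream of its start, at rank 2164, while an IDR peak of rank 1394 lay 560 bp upstream. The nearest to die-1 lay 3328 bp upstream, at rank 2370. For the other 7 genes the nearest member lay 20356 bp or more away. As the transgene carries cog-1, reads from it map to the cog-1 locus too, and this locus was not compared with others.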

How the data were processed

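The deposited lists give, per region, a signal value from the authors' caller and a −log10 q-value, with columns read as the narrow peak format. The deposited lists hold values for each replicate and for pooled replicates, in ce11 and ce10. Aligner, caller, IDR threshold and read depth are not given in the sources used here, so intervals cover counting error only. Regions with −log10 q above 1.30103 were matched to the IDR list by chromosome, start and summit offset. Summits, counted from 1, were placed on WBcel235 (the ce11 sequence) with Ensembl release 115, in the order gene-start window, coding exon, other exon, intron, intergenic. Sequences and soft-masking came from the RefSeq assembly, and no sequence of chromosome I is printed. A replicate's value is that of its region holding the pooled summit, with the nearest summit. Shares were compared by two-sided Fisher's exact tests with Benjamini-Hochberg adjustment over 5 locations, 6 chromosomes, 4 RNA classes or 18 motif comparisons (Python 3.11.15, scipy 1.17.1). Scripts were tested on simulated data.

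The members, the 29 gene lists and the motifs were chosen with earlier results of these data known. Genes named were the 10 members of highest pooled signal, the 10 whose worse replicate rank was best, up to 3 per list by signal, and 9 genes tied to COG-1 or the strain, and others were chosen after their values were seen. The symbols mom-3 and sphinx-1 matched no gene. Settings tried were the gene-start window, the q-value, the comparison regions, each replicate alone, the other build, the distances and the motif window. An item named by the rule is not reported here.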

Additional observations from a re-analysis of the deposited data

How the results depend on the processing

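Values are odds ratios unless stated. With members at q under 0.01 there were 493 members and 356 genes with a member, in place of 1135 and 752. With these, against IDR peaks, the value was 0.867 for gene starts, 3.75 for coding exons, 0.814 for other exons, 1.22 for introns, 1.14 for intergenic sequence, 0.73 for X and 0.914 for tRNA genes, and none passed. Other exons against other pooled regions then gave 1.42 (adjusted exact p = 0.03765). With a window of 500 bp upstream and 250 bp downstream, coding exons against IDR peaks gave 2.93 (adjusted exact p = 0.05407). Against IDR peaks below their median rank the value was 0.834 for other exons, 1.08 for introns, 0.859 for X and 0.921 for tRNA genes, and none passed. Against the 1135 regions ranked next below, it was 0.424 for coding exons, 0.808 for intergenic sequence and 1.03 for an IDR summit within 1000 bp, none passing, and other exons turned to 0.749 (adjusted exact p = 0.08156). Without regions that overlap an IDR peak, an IDR summit within 1000 bp gave 1.5 (exact p = 0.05308). Without regions near tRNA genes X against IDR peaks gave 0.832. The cause of these changes was not tested.

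Regions of the same ranks in a single replicate's list, which leave out the other replicate, gave 1.63 (without replicate 1) to 2.32 (without replicate 2) for coding exons against IDR peaks, 0.877 for X against IDR peaks under both, 1.02 to 1.04 for X against other pooled regions, which reversed without a call, 0.828 to 1.02 for intergenic sequence against other pooled regions, reversed without replicate 2, and 1.23 to 1.32 for other exons against other pooled regions, past the threshold without replicate 1. In such a single list the first 1841 regions stood for IDR peaks, the next 1135 for members and the rest for other pooled regions. Ranks alone were used there, without the q-value rule. In replicate 1's list a region of rank 2043 had a q-value of 0.05067, so the regions that stood for members included some not under 0.05. Of 100 alternative values for locations, X, tRNA genes, neighbouring peaks and counts, 72 kept direction and call, and of 18 for motifs 14 did. No paired analysis was possible because there was 1 group.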
